A study of Mus musculus with 3 samples.

Results

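ATF4 is the transcription factor at the end of the integrated stress response, and the genes described here are its known targets together with the enzymes and carriers that supply serine, glycine, one-carbon units and other amino acids. The 40 genes were chosen by name from these pathways, with the difference between Pax5-/- and wild-type counts already known, so their differences below are a description and not an independent finding. They are 40 of 27179 genes in the count table. All 40 were found by their Entrez numbers, and 35 passed a filter on low counts.

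RNA sequencing was done on total RNA of mouse pro-B cells, the bone marrow precursors that rearrange the heavy chain gene. Pax5 is a transcription factor that B-lineage cells need for commitment. There were 2 Pax5-/- samples, described as independent and both from males, and 1 wild-type sample from a female, all of the C57BL/6 strain. The labels give no age, and they do not say which part of Pax5 the null allele lacks. In all 3 samples B220+ marrow cells were expanded on OP9 stromal cells in a medium with pyruvate and non-essential amino acids. An IgM- fraction taken at day 7 is stated for the Pax5-/- samples, and neither the day nor the depletion is stated for the wild type. Sex, the stated depletion and the genotype cannot be told apart here.

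When uncharged tRNA, unfolded protein or another stress activates an eIF2 kinase, bulk translation falls and ATF4 mRNA is translated. ATF4 then pairs with partners such as CEBPG and activates genes that import amino acids, make serine, asparagine and proline, and charge the mitochondrial folate pathway. Serine is built from a glycolytic intermediate, and its side-chain carbon enters folate as the one-carbon unit used for purines, thymidylate and methionine. Dividing lymphocytes use this supply heavily.

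The libraries held 6487846 and 6697879 counts in Pax5-/- samples 1 and 2 and 6530057 in the wild type, and levels are given in CPM, counts scaled to a common library total by TMM. Pax5 itself had 417, 551 and 1601 counts, or 64.3 and 80.8 CPM against 249 CPM, and gene-level counts include any exons that the allele keeps. Of 11 pro-B markers, 5 fell, 4 rose and 2 were not called. The 12 stromal markers summed to 14.5 and 25.4 CPM in Pax5-/-, against 30.4 CPM, with Dcn and Lum at 0 in every library. Of 6 stromal markers tested, 0 were called by edgeR, with 2 lower and 2 higher at an unadjusted p under 0.05. DESeq2 called 1 of them higher and limma-voom none. The 8 neutrophil markers summed to 1.85 and 3.96 CPM in Pax5-/-, against 69.2 CPM, with Retnlg at 0 in every library. Of the 4 neutrophil markers tested, 3 were called lower, and these passed the filter through the wild type alone, so they could only be lower. Of 10 proliferation genes, 1 fell and 9 were not called, and their sum was 4643 and 4058 CPM against 5037 CPM. At an unadjusted p under 0.05, 5 of them were lower and 1 higher, and their median log2 fold change was -0.36.

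Most of the chosen genes were lower in Pax5-/-. Summed over the 40 genes, the wild type had 6071 CPM and Pax5-/- samples 1 and 2 had 2571 and 2767 CPM. Of the 35 genes tested, 24 were called lower and 0 higher in Pax5-/- (edgeR, adjusted p under 0.05 over all genes). Across all 11783 genes tested, 18.1% were called, 8.55% lower and 9.53% higher. At an unadjusted p under 0.05, and by DESeq2, limma-voom or the likelihood ratio test, the number of these genes called higher was also 0. Both Pax5-/- libraries stood below the wild type in 32 of the 35 genes and above it in 3. A fold of 2 or more in both libraries was found downward for 17 genes and upward for 0, beside 8.33% and 11.0% of all genes tested. The median log2 fold change, Pax5-/- over wild type, was -1.05 over the 35 genes and 0.0074 over all genes tested. Over 120 tested genes of the same pathways outside the 40, this median was -0.13.

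The spread behind each call came from the 2 Pax5-/- libraries (1 residual degree of freedom) and, for the larger share, from the trend over all genes (3.15 prior degrees), and the lone wild-type library was given that same spread. The 2 libraries differed by a median of 0.22 on the log2 scale in these genes and 0.18 in all genes tested. With a biological coefficient of variation of 0.4 assumed for every gene, 12 of the genes were called lower. The calls lost at this setting included those of Atf4, Ddit3, Ddit4, Phgdh, Psat1, Shmt2, Mthfd1l and Gcsh. Those kept included Trib3, Chac1, Eif4ebp1, Asns, Mthfd2, Gldc and Cth. Of the 35, 30 reached the filter level in all libraries. Chac1, Gldc, Cth and Slc6a9 passed through the wild type alone, so they could only be lower in Pax5-/-. Slc7a11 passed through Pax5-/- sample 2 alone, so in that sample it could only be higher than the wild type. In bulk RNA, fewer cells of a type and less RNA per cell cannot be told apart. The stromal and neutrophil sums were highest in the wild type, as most of these genes were. Sums of 2 other marker lists were higher in Pax5-/-. The 7 T or NK markers summed to 22.5 and 37.3 CPM in Pax5-/-, against 2.65 CPM. Most of this was Nkg7 (17.7 and 30.7 CPM against 0.779 CPM) and Trac (4.47 and 6.31 CPM against 1.09 CPM). Nkg7 and Trac passed the filter through the Pax5-/- libraries alone, so they could only be higher. Cd3e, Cd3g, Cd3d, Cd8a and Ncr1 had 0 to 2 counts in each library. The 8 monocyte or macrophage markers summed to 20.5 and 23.3 CPM, against 11.2 CPM. Most of this was Lyz2 (14.2 and 18.8 CPM against 4.36 CPM), while Csf1r stood lower in Pax5-/- (1.23 and 0.587 CPM against 3.43 CPM) and was not called. The part of any such cells in the differences was not tested.

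**Figure D1:**
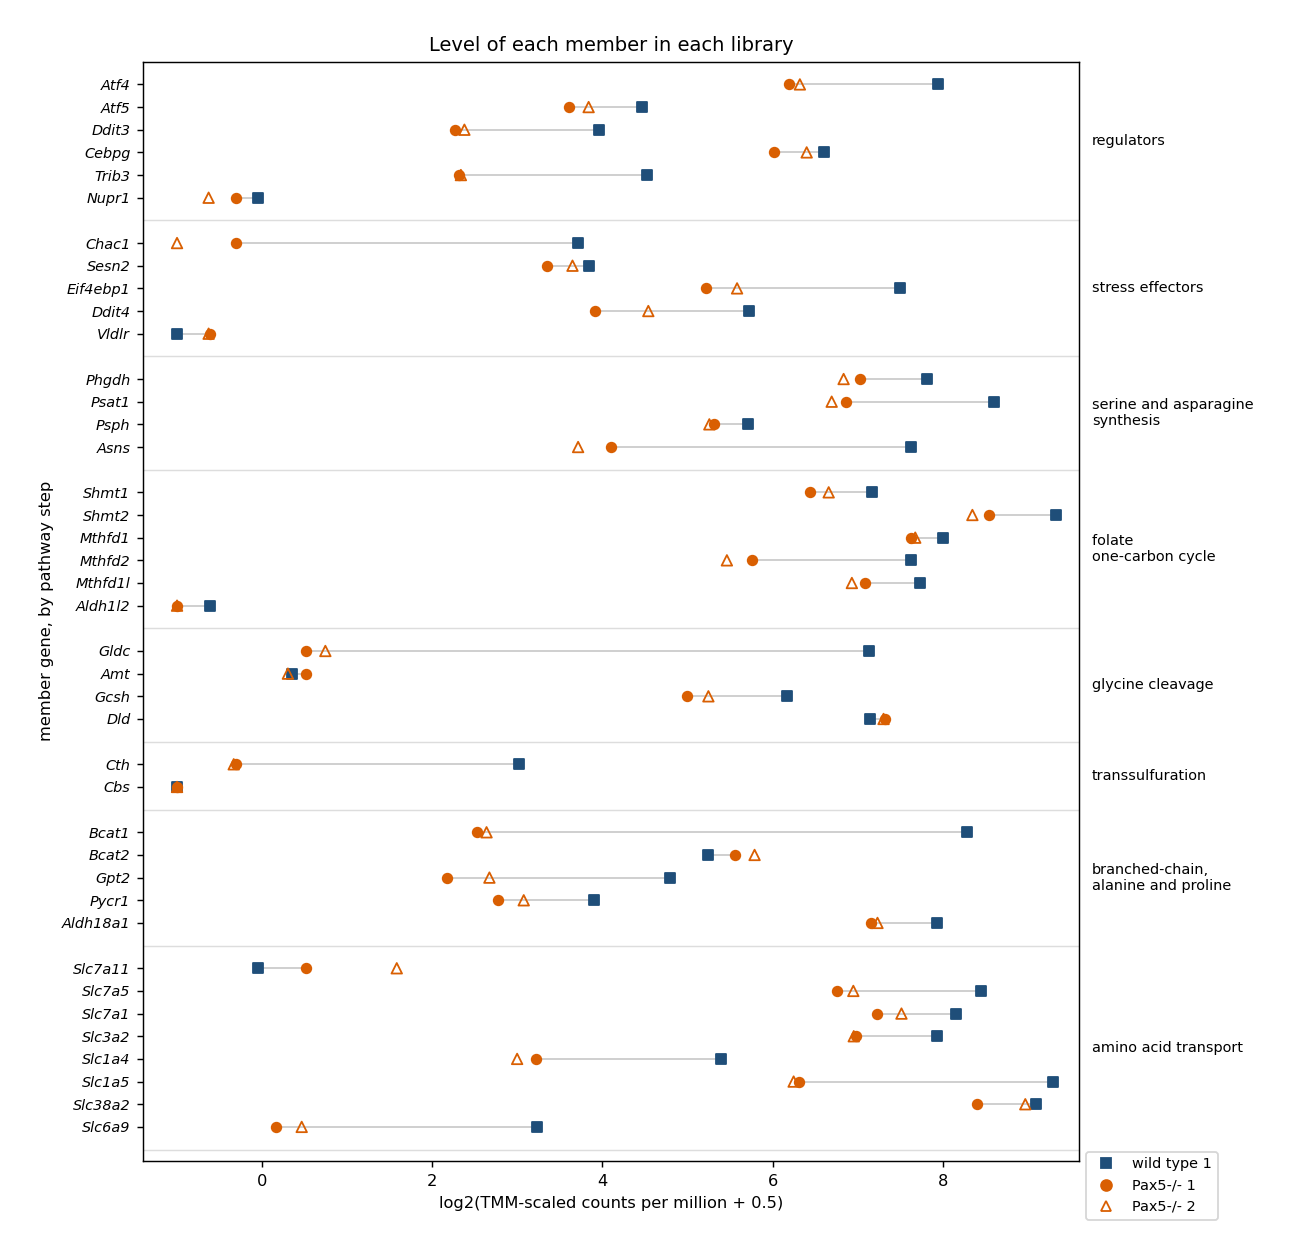
Level of each of the 40 genes in each library, as log2(CPM + 0.5), grouped by pathway step. Squares are the wild type, filled circles and open triangles are Pax5-/- samples 1 and 2, and a grey line joins sample 1 to the wild type. In 32 of the 35 tested genes both Pax5-/- points lie to the left of the wild type, farthest for Gldc, Bcat1 and Chac1.

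**Figure D2:**
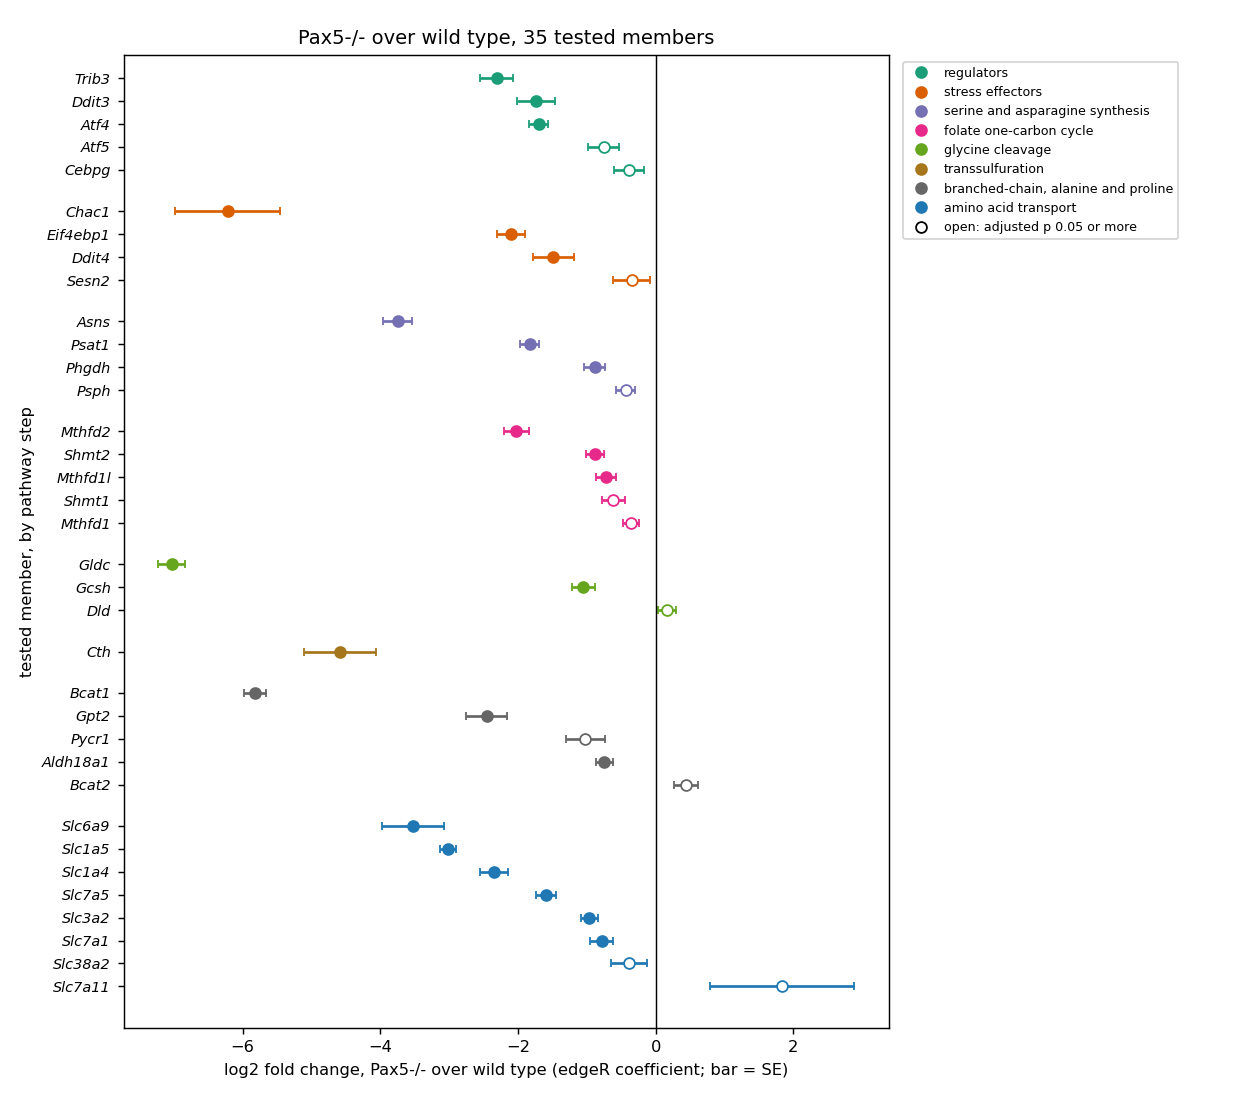
Log2 fold change of the 35 tested genes, Pax5-/- over wild type, with the SE of the edgeR coefficient as a bar and 1 colour for each pathway step. Filled points had an adjusted p under 0.05. Dld, Bcat2 and Slc7a11 are the 3 points to the right of 0, and all 3 are open.

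ATF4 binds a composite C/EBP-ATF element, and its letters were searched in the promoters of these genes to show which carry one near the start. Promoters of RefSeq (GRCm38.p6, 250 bases before to 50 after a start) were given for 35 of the 40 genes. The motif TGATGNAA, on either strand, was found in 8 of these 35 genes (22.9%), in 2.75% of the genes tested that have a promoter and in 4.51% of all genes that have one. It was found in 4 of the 20 genes called lower (20.0%) and in 4 of the other 15 (26.7%). The genes were listed partly as known ATF4 targets, so this share is a description of the list. The 7 stretches below show the matches in or across the upstream part, 5′ to 3′ on the gene's strand with the match in capitals.
Asns: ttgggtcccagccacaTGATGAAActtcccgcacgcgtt
Chac1: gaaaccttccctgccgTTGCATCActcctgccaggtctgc
Slc1a4: cagcgtgcctcctgcgTTGCATCA
Pycr1: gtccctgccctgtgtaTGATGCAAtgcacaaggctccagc
Slc7a11: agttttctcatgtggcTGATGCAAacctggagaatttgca
Nupr1: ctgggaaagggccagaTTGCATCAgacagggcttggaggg
Vldlr: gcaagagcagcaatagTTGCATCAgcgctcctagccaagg

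These stretches lie at chr6:7693210-7693248 on the minus strand for Asns, chr2:119351033-119351072 on the plus strand for Chac1 and chr11:20332710-20332733 on the minus strand for Slc1a4. Those of Pycr1 (chr11:120643828-120643867), Slc7a11 (chr3:50443656-50443695) and Nupr1 (chr7:126625557-126625596) are on the minus strand, and that of Vldlr (chr19:27216804-27216843) is on the plus strand. The match began 23 bases before the start in Asns, 193 in Chac1, 103 in Pycr1, 66 in Slc7a11, 110 in Nupr1 and 200 in Vldlr. In Slc1a4 it spanned the start, and in Trib3 it lay just after it. Slc7a11 held another match 47 bases before the start. The letters were thus present both in genes that were far lower in Pax5-/- (Asns, Chac1) and in genes with few counts in any library (Nupr1, Vldlr, Slc7a11). The E-box CACGTG, which MYC and its relatives bind, was in 3 of the 35 genes (8.57%), Aldh18a1, Cbs and Nupr1. It was in 12.2% of the genes tested that have a promoter and in 8.09% of all genes that have one.

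Among the regulators, Atf4 and the stress genes Ddit3 and Trib3 were lower in Pax5-/-, and Atf5 and Cebpg were not called. Atf4 (Entrez 11911; chromosome 15, 80255184 to 80257545, mm10) had 246 CPM in the wild type, and Pax5-/- samples 1 and 2 had 72.5 and 79.4 CPM. The 2 Pax5-/- libraries lay close together at about the same distance below the wild type, with a mean of 75.9 ± 4.89 CPM (SD, n = 2) and a log2 fold change of -1.70 (SE 0.14). ATF4 is controlled largely through translation, which these counts do not measure. Ddit3, which encodes the stress factor CHOP, had 4.32 and 4.70 CPM against 15.1 CPM (log2 fold change -1.74, SE 0.27). Trib3, a pseudokinase that binds ATF4 and feeds back on it, had 4.47 and 4.55 CPM against 22.4 CPM (log2 fold change -2.31, SE 0.24). In both genes the Pax5-/- libraries were nearly alike. The call of Ddit3 was lost with DESeq2, at a log2 fold change of -1.75.

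Atf5, a relative of ATF4 that is also translated under stress, had 11.7 and 13.8 CPM against 21.5 CPM (log2 fold change -0.75, SE 0.22). Cebpg, the gene of a dimer partner of ATF4, had 64.0 and 83.9 CPM against 96.7 CPM. Pax5-/- sample 2 came near the wild type in Cebpg, and the log2 fold change of -0.39 (SE 0.22) was smaller than those of Atf4, Ddit3 and Trib3. Nupr1, a small stress-induced chromatin protein gene, had 2, 1 and 3 counts and was below the filter.

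The effectors of the stress response differed widely in size. Chac1, an enzyme that degrades glutathione, had 81 counts in the wild type but 2 and 0 in Pax5-/-, so the scaled wild-type count was 83.9 times that of Pax5-/- (95% counting interval 22.5 to 705). This was the lowest Pax5-/- total among the 35 tested genes of the group. Eif4ebp1, which encodes the translation repressor 4E-BP1, had 36.5 and 47.4 CPM against 180 CPM (log2 fold change -2.10, SE 0.20). Ddit4, an inhibitor of mTORC1 that is also known as REDD1, had 14.5 and 22.7 CPM against 52.2 CPM (log2 fold change -1.48, SE 0.29). Both Pax5-/- libraries were well below the wild type in these genes, although they differed from each other more in Ddit4 than in Eif4ebp1. The call of Ddit4 was lost with library size alone as scaling (log2 fold change -1.45). Sesn2, a leucine-sensing inhibitor of mTORC1, had 9.71 and 12.0 CPM against 13.9 CPM and was not called. Vldlr, a lipoprotein receptor gene that ATF4 can induce, had 1, 1 and 0 counts.

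In serine and asparagine synthesis, Phgdh, Psat1 and Asns were called lower and Psph was not called. Phgdh, which commits the glycolytic intermediate to serine, had 130 and 114 CPM in Pax5-/-, against 225 CPM (log2 fold change -0.89, SE 0.15). Psat1 (Entrez 107272; chromosome 19, 15905123 to 15925059, mm10), the aminotransferase of the next step, had 116 and 103 CPM against 389 CPM (log2 fold change -1.83, SE 0.13). Psph, the phosphatase that releases serine, had 39.2 and 37.7 CPM against 51.9 CPM (log2 fold change -0.43, SE 0.14) and was not called. Thus the middle enzyme of the pathway stood at 29.7% and 26.5% of the wild type, the first at 57.7% and 50.6%, and the last at 75.5% and 72.7%. Asns (Entrez 27053; chromosome 6, 7675165 to 7693209, mm10), which makes asparagine from aspartate and glutamine, had 16.7 and 12.6 CPM against 197 CPM. Its level was 14.6 ± 2.85 CPM (SD, n = 2) in Pax5-/-, a log2 fold change of -3.75 (SE 0.21), or 13.4-fold lower. This fold was the largest of the 4 genes of the step. Phgdh is uncertain, because 63.1% of the 50-base words of its transcript also occur in transcripts of other genes, most in the copy Gm7901. Psph shares 23.9%, most with the overlapping Cct6a.

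Of the folate cycle genes listed here, all 5 tested had both Pax5-/- libraries below the wild type. Those called lower were the 3 tested mitochondrial ones. Mthfd2 (Entrez 17768; chromosome 6, 83305704 to 83326011, mm10), the mitochondrial dehydrogenase and cyclohydrolase, had 53.7 and 43.6 CPM against 197 CPM (log2 fold change -2.02, SE 0.18). Shmt2, the mitochondrial enzyme that moves the one-carbon unit from serine to folate, had 372 and 325 CPM against 644 CPM (log2 fold change -0.89, SE 0.13). Mthfd1l, which releases formate from the mitochondrion, had 135 and 121 CPM against 211 CPM (log2 fold change -0.72, SE 0.14). The likelihood ratio test did not call Mthfd1l. The cytosolic counterparts were nearer to the wild type by log2 fold change. In sample 1, however, Shmt1 (-0.72 on the log2 scale) was farther from the wild type than Mthfd1l (-0.65). In sample 2 the order was the reverse (-0.51 and -0.80). Shmt1 had 86.5 and 101 CPM against 143 CPM (log2 fold change -0.61, SE 0.16). Mthfd1, the cytosolic enzyme with 3 activities, had 196 and 204 CPM against 256 CPM (log2 fold change -0.35, SE 0.12). Neither was called, and whether the fold changes differ between the compartments was not tested. Aldh1l2, a mitochondrial folate oxidase gene, had 0, 0 and 1 counts. Mthfd2l, a mitochondrial folate gene outside those listed here, is named after its values were seen. It had 4.93 and 4.84 CPM in Pax5-/-, against 2.03 CPM (log2 fold change 1.26, SE 0.42), and was not called.

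Compared per kilobase of gene length, Shmt2 was the most abundant of the 40 in both groups, at 279 CPM per kilobase in the wild type but 162 and 141 in Pax5-/-. The ratio of Shmt2 to Shmt1 per length was 3.86 and 2.90 in Pax5-/-, against 4.04. The ratio of Mthfd2 to Mthfd1 was 0.439 and 0.343 against 1.24, so that the mitochondrial gene was above the cytosolic one in the wild type and below it in both Pax5-/- libraries.

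The glycine cleavage system, a mitochondrial complex of 4 proteins that breaks glycine down to a one-carbon unit, was uneven. Gldc (Entrez 104174; chromosome 19, 30098441 to 30175441, mm10), the decarboxylase, had 899 counts in the wild type but 6 and 8 in Pax5-/-. These are 0.925 and 1.17 CPM against 140 CPM, a log2 fold change of -7.03 (SE 0.20). With so few Pax5-/- counts, the order of Gldc (count ratio 133, 95% counting interval 78.9 to 244) and Chac1 cannot be told. Gcsh, the lipoyl carrier of the complex, had 31.3 and 37.4 CPM against 71.2 CPM (log2 fold change -1.05, SE 0.17). Dld, the dehydrogenase that the complex shares with pyruvate dehydrogenase, had 159 and 157 CPM against 141 CPM (log2 fold change 0.17, SE 0.13) and was not called. Amt, the aminomethyltransferase, had 6, 5 and 5 counts and was below the filter. The decarboxylase and the shared dehydrogenase therefore stood at a ratio per length of 0.593 in the wild type and of 0.00347 and 0.00445 in Pax5-/-, while Amt was scarce in all 3 libraries.

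Of the 2 transsulfuration genes, which turn homocysteine into cysteine, neither was abundant. Cth, the second enzyme, had 49 counts in the wild type but 2 and 2 in Pax5-/-, 25.4 times fewer after scaling (95% counting interval 9.31 to 96.9). Cbs, the first enzyme, had 0 counts in every library, which at this depth allows up to 0.463, 0.440 and 0.467 CPM.

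Among the aminotransferases and the proline enzymes, Bcat1 stood out. Bcat1 (Entrez 12035; chromosome 6, 144993835 to 145076157, mm10), the cytosolic aminotransferase of branched-chain amino acids, had 311 CPM in the wild type but 5.24 and 5.72 CPM in Pax5-/-. Its mean of 5.48 ± 0.339 CPM (SD, n = 2) gave a log2 fold change of -5.82 (SE 0.16), or 56.5-fold lower. Bcat2, the mitochondrial enzyme of the same reaction, went the other way, with 46.6 and 54.7 CPM against 37.4 CPM (log2 fold change 0.44, SE 0.18), and was not called. The ratio of Bcat1 to Bcat2 per length was 2.26 in the wild type and 0.0306 and 0.0284 in Pax5-/-, so the more abundant paralogue differed between the groups. Of the exon bases of Bcat2, 15.9% overlap a gene on the opposite strand.

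Gpt2, the mitochondrial alanine aminotransferase, had 4.01 and 5.87 CPM against 27.3 CPM (log2 fold change -2.46, SE 0.30). Aldh18a1, the first enzyme of proline synthesis, had 142 and 150 CPM against 244 CPM (log2 fold change -0.74, SE 0.13). Pycr1, the last one, had 6.32 and 7.92 CPM against 14.5 CPM (log2 fold change -1.02, SE 0.28). Both Pax5-/- libraries were below the wild type in each of these genes, and Pycr1 was not called. In the likelihood ratio test Pycr1 passed the threshold and Aldh18a1 did not.

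Of the 8 carriers that bring amino acids into the cell, 6 were called lower and 2 were not called. Slc1a5 (Entrez 20514; chromosome 7, 16781334 to 16798274, mm10), the neutral amino acid and glutamine carrier ASCT2, had 625 CPM in the wild type but 78.8 and 75.4 CPM in Pax5-/-. At 77.1 ± 2.39 CPM (SD, n = 2) it was 8.11-fold lower (log2 fold change -3.02, SE 0.11). Its relative Slc1a4, the serine and alanine carrier ASCT1, had 8.79 and 7.48 CPM against 41.4 CPM (log2 fold change -2.35, SE 0.20). The 2 carriers were thus both lower, and Slc1a5 was the more abundant per length in every library, by 12.8 and 14.3 times in Pax5-/- and 21.5 times in the wild type. Slc6a9, the glycine carrier GLYT1, had 4 and 6 counts against 57 (log2 fold change -3.53, SE 0.45). Slc6a9 is uncertain, because 30.2% of its exon bases overlap genes on the opposite strand.

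Slc7a5, the light chain of the large neutral amino acid carrier LAT1, had 108 and 123 CPM against 348 CPM (log2 fold change -1.59, SE 0.14). Slc3a2, the CD98 heavy chain that LAT1 and other carriers need, had 126 and 123 CPM against 243 CPM (log2 fold change -0.97, SE 0.12). Slc7a5 was above Slc3a2 per length in the wild type, with a ratio of 1.20, and below it in Pax5-/-, with ratios of 0.721 and 0.839. Slc7a1, the arginine and lysine carrier CAT1, had 149 and 182 CPM against 285 CPM (log2 fold change -0.78, SE 0.17). Its call was lost with limma-voom (-0.79), in the likelihood ratio test (-0.78) and with library size alone as scaling (-0.74).

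The 2 carriers that were not called differed between the Pax5-/- libraries. Slc38a2, the sodium-coupled neutral amino acid carrier SNAT2, had 339 and 501 CPM against 548 CPM (log2 fold change -0.38, SE 0.26). Sample 2 was close to the wild type and sample 1 was not. Slc7a11, the cystine carrier subunit xCT and a known ATF4 target, had 3 counts in the wild type but 6 and 17 in Pax5-/-. Pax5-/- was higher by a count ratio of 3.70 (95% counting interval 1.12 to 19.2), and the 2 libraries differed by 1.19 on the log2 scale, the most of the 35 genes. The interval pools the 2 libraries and leaves out the spread between them, and the edgeR log2 fold change was 1.84 (SE 1.05). Because the gene passed the filter through Pax5-/- sample 2 alone, that sample could only be higher. Slc7a11 was thus scarce in all 3 libraries and was not called in either direction.

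**Figure D3:**
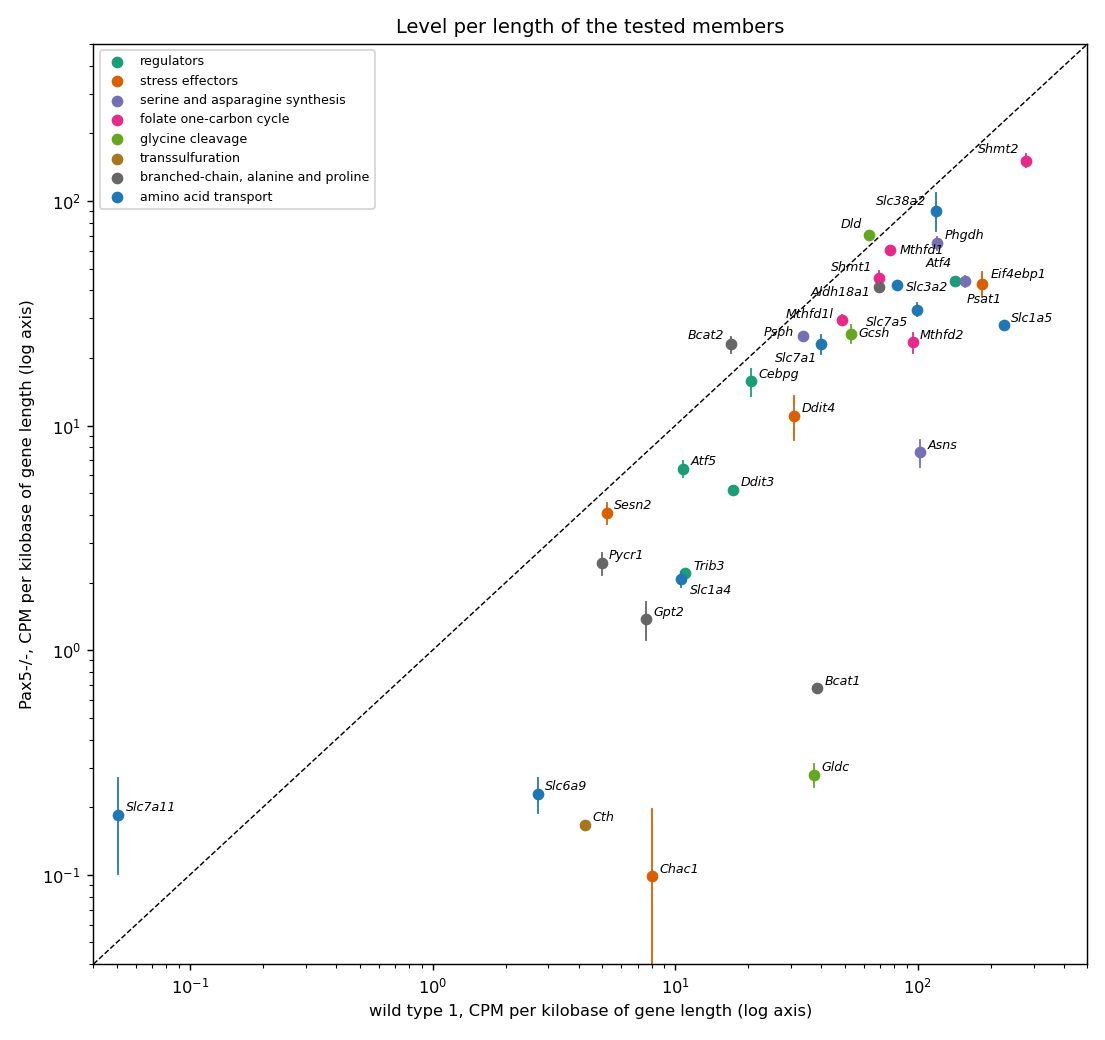
Level of each tested gene per kilobase of gene length, in CPM per kilobase on log axes, in the wild type (horizontal) and in Pax5-/- (vertical; point, mean of 2 samples; line, the 2 samples). The dashed line marks equal levels, colours are pathway steps, and the line of Chac1 runs off the lower edge because sample 2 had 0 counts. Gldc, Chac1 and Bcat1 lie farthest below the dashed line, with Gldc at 37.3 and Bcat1 at 38.4 CPM per kilobase in the wild type.

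Genes of the same pathways outside the 40 were called lower or higher at shares near those of all genes tested, 8.55% and 9.53%. Over 7 lists of such genes, 120 of 153 were tested, of which 13 fell (10.8%), 10 rose (8.33%) and 97 were not called, with a median log2 fold change of -0.13. Upstream of ATF4, 2 of 16 tested genes fell and 0 rose (median log2 fold change -0.39). The 16 were the genes of the eIF2 kinases, eIF2 and its exchange factor, with Gcn1, Nck1, Ppp1r15a and Ppp1r15b. At an unadjusted p under 0.05, 7 of these were lower and 0 higher, and DESeq2, limma-voom and the likelihood ratio test called 0 higher. Eif2ak3, which encodes the endoplasmic reticulum kinase PERK, had 25.1 and 34.2 CPM against 136 CPM (log2 fold change -2.20, SE 0.22, edgeR adjusted p = 0.0102). Ppp1r15b, the constitutive cofactor of eIF2 dephosphorylation, fell by 0.79 on the log2 scale (SE 0.17, edgeR adjusted p = 0.0490), and neither limma-voom, the likelihood ratio test nor scaling by library size alone called it.

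Of 18 tested genes among the other known targets and partners of ATF4, 4 were called lower and 3 higher, with a median log2 fold change of -0.13. Herpud1, of endoplasmic reticulum protein degradation, had 86.2 and 134 CPM against 345 CPM (log2 fold change -1.65, SE 0.28, edgeR adjusted p = 0.0302). Vegfa, Kdm7a and Gadd45b were the others that fell, and they are named after their values were seen. Of this list, DESeq2 called 2 genes lower, limma-voom 4 and the likelihood ratio test 6. With a biological coefficient of variation of 0.4 for every gene, 0 were called lower. The 3 that rose were Ern1, Nfil3 and Ndrg1. Ern1, the gene of the stress sensor IRE1, rose from 8.41 CPM to 46.3 and 57.5 CPM (log2 fold change 2.62, SE 0.24, edgeR adjusted p = 0.00818). Ndrg1, a stress-responsive gene, rose from 23.5 to 93.6 and 110 CPM (log2 fold change 2.11, SE 0.20, edgeR adjusted p = 0.00873). Nfil3, a transcription factor gene, rose by 2.39 on the log2 scale (SE 0.46, edgeR adjusted p = 0.0385), and limma-voom did not call it.

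In the rest of the folate and methionine cycles, 0 of 21 tested genes were called in either direction, with a median log2 fold change of -0.23. At an unadjusted p under 0.05, 3 were lower and 1 higher (Mthfd2l), and DESeq2, limma-voom and the likelihood ratio test called 0. The 2 with the smallest p were Fpgs, which adds glutamates to folate, and Mtap, of the methionine salvage pathway. Mtap had 78.5 and 89.9 CPM against 128 CPM (log2 fold change -0.61, SE 0.16, edgeR adjusted p = 0.0757). Fpgs had 31.9 and 36.7 CPM against 49.1 CPM (log2 fold change -0.52, SE 0.16, edgeR adjusted p = 0.105).

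Of 14 other amino acid transporters tested, 2 were called lower and 3 higher, with a median log2 fold change of 0.35. Slc16a10, the aromatic amino acid carrier TAT1, rose from 2.80 CPM to 72.6 and 77.9 CPM (log2 fold change 4.74, SE 0.21, edgeR adjusted p = 0.00297). Slc36a1, a proton-coupled carrier, rose by 1.29 on the log2 scale (SE 0.26, edgeR adjusted p = 0.0437), a call lost with DESeq2, with limma-voom and with library size alone as scaling. Slc6a6, the taurine carrier, was the third that rose and is named after its values were seen. Slc36a4 had 37 counts in the wild type but 0 in each Pax5-/- library, at least 25.6-fold lower by a floor of 3 counts over the group. Slc7a3, a cationic amino acid carrier of the family of Slc7a1, had 20 counts in the wild type but 1 over both Pax5-/- libraries, 41.4 times fewer after scaling (95% counting interval 6.63 to 1718), a call lost with DESeq2. Slc36a4 and Slc7a3 passed the filter through the wild type alone and could only be lower.

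**Figure D4:**
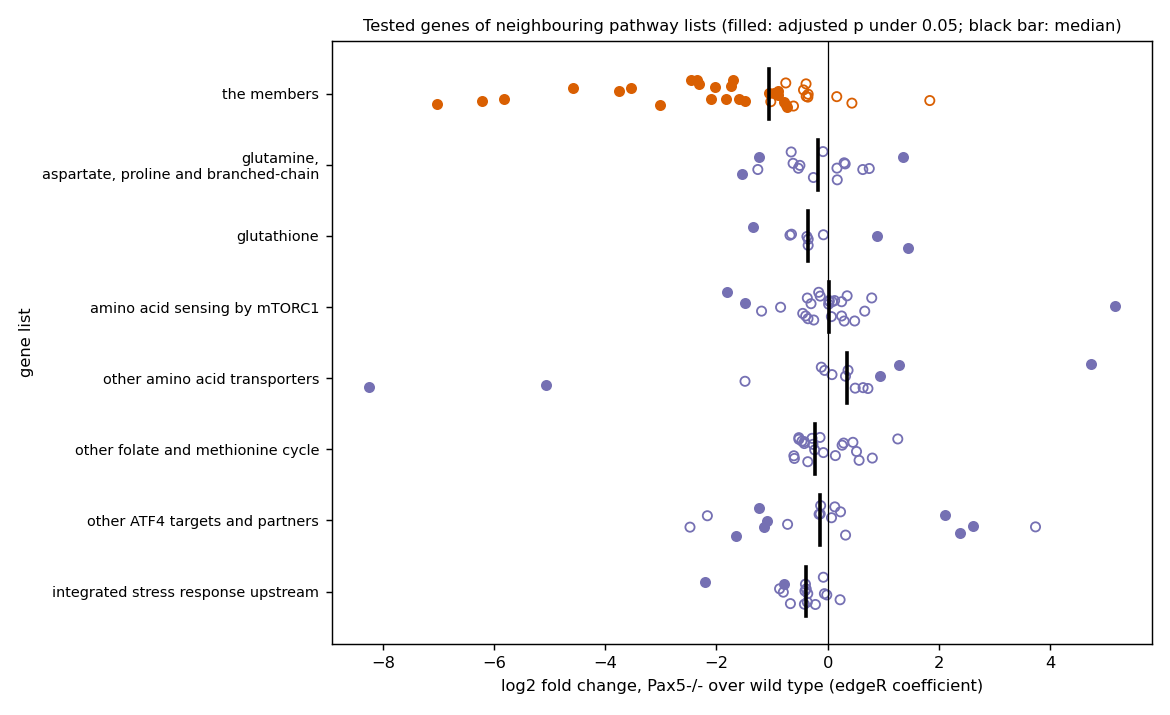
Log2 fold change, Pax5-/- over wild type, of the tested genes of 7 neighbouring pathway lists (purple) and of the 35 tested genes of the ATF4, serine and one-carbon group (orange). Filled points had an adjusted p under 0.05, black bars are medians, and points are spread vertically for view. The medians of the 7 lists lie between -0.39 and 0.35, and that of the orange group, which was chosen with these values known, at -1.05.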

How the data were processed

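Total RNA of 2 Pax5-/- samples and 1 wild-type sample was sequenced, and the samples were grouped by the genotype in their titles. The authors deposited whole-number read counts per gene, not normalized, made with featureCounts on mm10 per the submitters' processing notes. For the aligner and the annotation release, what was used is not given in the sources used here, nor is a strand setting. A length in bases accompanies each gene, per the file headers. The table of the whole series and the 3 per-sample files held identical counts in all 3 libraries. Without strand, a read in 2 overlapping or antisense genes cannot be assigned.

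Symbols and coordinates came from RefSeq genes of GRCm38.p6 by Entrez number (25275 of 27179 matched, 93.0%; the unmatched held 0.913% to 0.982% of counts and stayed in the tests). In R 4.3.3, edgeR 4.0.16 kept 11783 genes by filterByExpr (minimum count 10), scaled by TMM and compared the groups by its quasi-likelihood test, adjusted by Benjamini-Hochberg over all genes (threshold 0.05). There was 1 residual degree of freedom per gene and 3.15 prior degrees. The code was tested on simulated data. The SE is the coefficient over the root of F. Fold-of-2 counts used log2 CPM with a prior count of 2. Counting intervals (Clopper-Pearson, 95%) and floors of 3 counts cover counting error only. Shared 50-base words and exon overlap came from GENCODE M21 transcripts. Alternatives were RLE or library-size scaling, 2 other filters, DESeq2 1.42.0, limma-voom 3.58.1, the likelihood ratio test, robust dispersion, an assumed dispersion, and each Pax5-/- library left out. Whether the 2 Pax5-/- samples came from separate animals or cultures is given only as "independent". The p-values rest on the spread between these 2 samples and, for the larger share, on the trend over all genes. With 1 wild-type sample, no spread between wild-type samples enters them.

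The 40 genes and all lists were chosen with earlier results of these data known. All 40 are named; from each other list, up to 4 called genes with a mean of at least 1 CPM by size of change, or the 2 with the smallest p where none was called.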

Additional observations from a re-analysis of the deposited data

How the results depend on the processing

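The number of the 40 genes called lower in Pax5-/-, 24, ranged from 21 to 24 under RLE or library-size scaling, both other filters, DESeq2, limma-voom, the likelihood ratio test and robust dispersion. It was 12 with a biological coefficient of variation of 0.4 for every gene. That setting gave 3 lower and 4 higher of the other pathway genes, beside 13 and 10, and 1206 of all genes, beside 2130. The median log2 fold change of the 35 tested genes ranged from -1.18 to -0.99 when either Pax5-/- library was left out, with 1 library a group and no test. The count at least 2-fold lower was 17 to 19 with either library left out, and the count at least 2-fold higher was 0 to 1, the 1 being Slc7a11 in sample 2 (chosen after seeing the data). No direction among the 24 called genes reversed under any of these settings. No paired analysis was possible, because there was 1 wild-type sample and the labels give no pairing between the groups. Folds of genes with under 10 counts in Pax5-/- (Chac1, Gldc per library, Cth, Slc6a9) are limited by depth.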

Other observations

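Genes of glutathione handling, of amino acid sensing and of glutamine and aspartate metabolism lie beside the serine and cysteine supply, and their counts stand beside 18.1% called over all genes tested. Of 9 tested glutathione genes, 2 rose, 1 fell and 6 were not called (median log2 fold change -0.35). Gpx1, a glutathione peroxidase, had 185 CPM in the wild type, and Pax5-/- samples 1 and 2 had 490 and 525 CPM (log2 fold change 1.45, SE 0.12, edgeR adjusted p = 0.00736). Gsr, glutathione reductase, rose by 0.88 on the log2 scale (SE 0.15, edgeR adjusted p = 0.0300), a call lost with DESeq2. Glrx, a glutaredoxin, fell by 1.34 on the log2 scale (SE 0.17, edgeR adjusted p = 0.0160).

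Of 26 tested genes of amino acid sensing by mTORC1, 2 fell, 1 rose and 23 were not called (median log2 fold change 0.022). Mtor, the kinase itself, had 87.1 and 80.3 CPM against 234 CPM (log2 fold change -1.48, SE 0.14, edgeR adjusted p = 0.00847). Rragd, one of the Rag GTPases, fell by 1.80 on the log2 scale (SE 0.34, edgeR adjusted p = 0.0379), a call lost with library size alone as scaling. Fnip2, a partner of folliculin, had 4 counts in the wild type but 124 and 185 in Pax5-/- (log2 fold change 5.17, SE 0.50, edgeR adjusted p = 0.00906), and it passed the filter through the Pax5-/- libraries alone, so it could only be higher. Of 16 tested genes of glutamine, aspartate, proline and branched-chain metabolism, 2 fell, 1 rose and 13 were not called (median log2 fold change -0.17). Glul, glutamine synthetase, had 70.9 and 76.3 CPM against 213 CPM (log2 fold change -1.53, SE 0.14, edgeR adjusted p = 0.00818). Got1, the cytosolic aspartate aminotransferase, fell by 1.23 on the log2 scale (SE 0.14, edgeR adjusted p = 0.0130). Asl, argininosuccinate lyase, rose by 1.36 on the log2 scale (SE 0.16, edgeR adjusted p = 0.0138).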
